A study of Mus musculus with 16 samples.

Results

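The transcripts described here are those of insulin, amylin and the proteins that beta cells pack into the same secretory granules: Ins1, Ins2, Iapp, Pcsk1, Pcsk2, Pcsk1n, Chga, Chgb, Scg2 and Slc30a8. These 10 genes were taken by name from the 24411 gene symbols counted in RNA of the whole pancreas, and all 10 were among the 13660 genes with enough reads to be tested. The libraries came from 16 male C57BL6/J mice killed at 12 weeks of age on standard chow. They fall into 3 groups: lean WT mice on control water (5), obese Lep(ob/ob) mice on control water (7), and Lep(ob/ob) mice that drank a CCK receptor antagonist for the last 6 weeks (4). CCK is a gut hormone that drives secretion from the acinar pancreas, and its receptors are blocked by both drugs used. Lep(ob/ob) mice have no functional leptin. Among the treated mice, 2 received proglumide at 0.1 mg/ml and 2 received lorglumide at 0.05 mg/ml, so the drugs differ in dose as well as in structure. The labels place 3 WT and 4 untreated Lep(ob/ob) mice in a batch A and 2 WT, 3 untreated and all 4 treated Lep(ob/ob) mice in a batch B, without saying what was done in batches. The labels describe the WT mice as bred in house and the methods as purchased, so a difference in origin and the genotype cannot be told apart. Each library is 1 mouse.

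Insulin is made as a precursor and cut to its active form inside the granule by the proprotein convertases PC1/3 (Pcsk1) and PC2 (Pcsk2). ProSAAS, the product of Pcsk1n, can inhibit PC1/3. The zinc transporter ZnT8 (Slc30a8) loads the granule with the zinc around which insulin crystallises, and amylin (Iapp) is stored and released with insulin. Chromogranin A (Chga), chromogranin B (Chgb) and secretogranin II (Scg2) are acidic granins that help granules to form. Mice carry 2 insulin genes, Ins1 and Ins2. Insulin, and largely amylin and ZnT8, mark beta cells, whereas the convertases and granins are also made by other islet cells and by neurons, so the granule label covers more than beta cells for these genes.

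The insulin genes are close copies, which bears on how reads are shared between them. In the GENCODE vM21 annotation of GRCm38, Ins1 lies on the plus strand at chr19:52264297-52265476 with 2 exons, and Ins2 on the minus strand at chr7:142678656-142743381, a span that includes models longer than the 3-exon transcript used here. Their coding sequences of 327 and 333 bases align over 327 bases with 92.4% identity, and the longest identical run is 56 bases. Of the 50-base stretches in Ins1 transcripts, 0.691% also occur in Ins2, and 0.465% of those in Ins2 also occur in Ins1, so that few stretches of this length are common to both. The first 162 coding bases are shown because they hold 15 of the differences, in capitals.
Ins1: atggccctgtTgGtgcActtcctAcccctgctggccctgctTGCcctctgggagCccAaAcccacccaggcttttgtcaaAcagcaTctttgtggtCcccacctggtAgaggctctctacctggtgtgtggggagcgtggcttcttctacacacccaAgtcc
Ins2: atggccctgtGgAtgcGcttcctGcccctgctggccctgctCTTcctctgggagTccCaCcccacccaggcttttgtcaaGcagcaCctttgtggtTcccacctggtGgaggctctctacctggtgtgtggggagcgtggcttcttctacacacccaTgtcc

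The other members lie apart in the genome, at chr6:142298423-142303961 (Iapp), chr13:75089826-75134861 (Pcsk1), chr2:143546156-143816285 (Pcsk2), chrX:7919822-7924410 (Pcsk1n), chr12:102554969-102565028 (Chga), chr2:132781278-132795079 (Chgb), chr15:52295553-52335798 (Slc30a8) and, on the minus strand, chr1:79434669-79440120 (Scg2). They have between 2 and 14 exons. Slc30a8 and Pcsk2 share 0.364% and 0.572% of their stretches with transcripts of other genes, Chga 0.037%, and the remaining 5 none.

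Upstream sequence was available for 8 of the 10 members from RefSeq (GRCm38.p6), as the 250 bases before the annotated start. Ins2 and Slc30a8 were not matched. The octamer TGACGTCA, known as the cAMP response element, occurred in 3 of these 8 windows, those of Scg2, Chgb and Pcsk1, and in 1.55% of all 32851 windows of the same length. Its first base stood 68 bases before the start in Scg2, 72 in Chgb and 78 in Pcsk1. The octamer is shown in capitals with 10 bases on each side, at chr1:79440077-79440104 (minus strand) for Scg2, chr2:132781560-132781587 (plus) for Chgb and chr13:75089769-75089796 (plus) for Pcsk1, as the members that hold it. Their fold changes below include the largest of the 10 (Scg2 and Chgb) and the second smallest (Pcsk1). GENCODE places the starts of Scg2 and Chgb further upstream than RefSeq, so that its exon 1 includes the octamer there.
Scg2: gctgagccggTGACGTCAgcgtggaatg
Chgb: ggctgctccgTGACGTCAgggctgagcg
Pcsk1: caggtagatcTGACGTCAagagatggct

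The insulin and amylin windows lacked the octamer and are shown with every TAAT, the core read by homeodomain factors such as PDX1, in capitals on either strand (TAAT or ATTA), together with the single GCCATCTG of Ins1, the E box of the insulin promoter. The Ins1 window lies at chr19:52264047-52264296 and that of Iapp at chr6:142298175-142298424, both on the plus strand.
Ins1: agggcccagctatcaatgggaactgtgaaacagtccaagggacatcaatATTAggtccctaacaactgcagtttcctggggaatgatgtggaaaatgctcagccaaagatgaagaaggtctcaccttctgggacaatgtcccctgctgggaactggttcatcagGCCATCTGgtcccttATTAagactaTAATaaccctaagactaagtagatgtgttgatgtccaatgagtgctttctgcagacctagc
Iapp: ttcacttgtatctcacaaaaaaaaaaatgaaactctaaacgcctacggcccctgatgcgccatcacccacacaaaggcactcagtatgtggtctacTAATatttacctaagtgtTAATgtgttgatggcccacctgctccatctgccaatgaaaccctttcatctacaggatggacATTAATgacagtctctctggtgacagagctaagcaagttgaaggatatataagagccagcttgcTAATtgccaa
TAAT occurred 3 times before Ins1 and 5 times before Iapp. It was present in 5 of the 8 member windows and 54.9% of all windows. GCCATCTG was in 1 of 8 and in 1.11% of all. The shorter TGACG, which is part of the octamer, was in 5 of 8 against 17.8%, the general E box CANNTG, which GCCATCTG contains, in 7 of 8 against 66.2%, TGCTGA in 1 of 8 against 16.1%, and TATAAA in 0 of 8 against 12.4%. Both strands were searched. These are counts of letters, with no measurement of binding.

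Reads on genes per library numbered 19191056 to 34452289 for batch A, whereas batch B had 9870412 to 15884154. A few genes held much of each library, the top 50 accounting for 79.2% to 85.0% of reads with batch A and 49.3% to 77.1% with batch B. The deposited normalized count is the read count divided by 1 size factor for the library. Lep itself, whose transcript does not check the genotype because the ob mutation changes the protein, ranged over 17.5 to 64.7 normalized counts in WT and 254 to 8655 in untreated Lep(ob/ob) mice. In RNA of the whole pancreas, a larger share of beta cells and more RNA per beta cell cannot be told apart.

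The 10 members together took 0.0729% to 0.170% of the reads in WT mice, 0.329% to 1.01% in untreated Lep(ob/ob) mice and 0.328% to 1.77% in treated Lep(ob/ob) mice. Per kilobase of coding sequence, the WT order of mean normalized counts was Ins2 (33909), Ins1 (18109), Iapp (11878), Chga (953), Scg2 (516), Pcsk2 (295), Slc30a8 (143), Chgb (106), Pcsk1n (72.8) and Pcsk1 (70.0). Among neighbours in that order, the mice overlapped for Ins1 and Iapp, for Chga and Scg2, for Chgb and Pcsk1n, and for Pcsk1n and Pcsk1. In untreated Lep(ob/ob) mice the 3 hormones kept the top places, at 217762 for Ins2, 97341 for Ins1 and 84220 for Iapp, and all neighbours overlapped except Iapp and Scg2. Scg2 (6361) stood above Chga (5292) there, and Chgb (1393) above Slc30a8 (382). With the length of the whole transcript in place of the coding length, the order in WT mice was the same except that Pcsk1 stood above Pcsk1n.

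**Figure D1:**
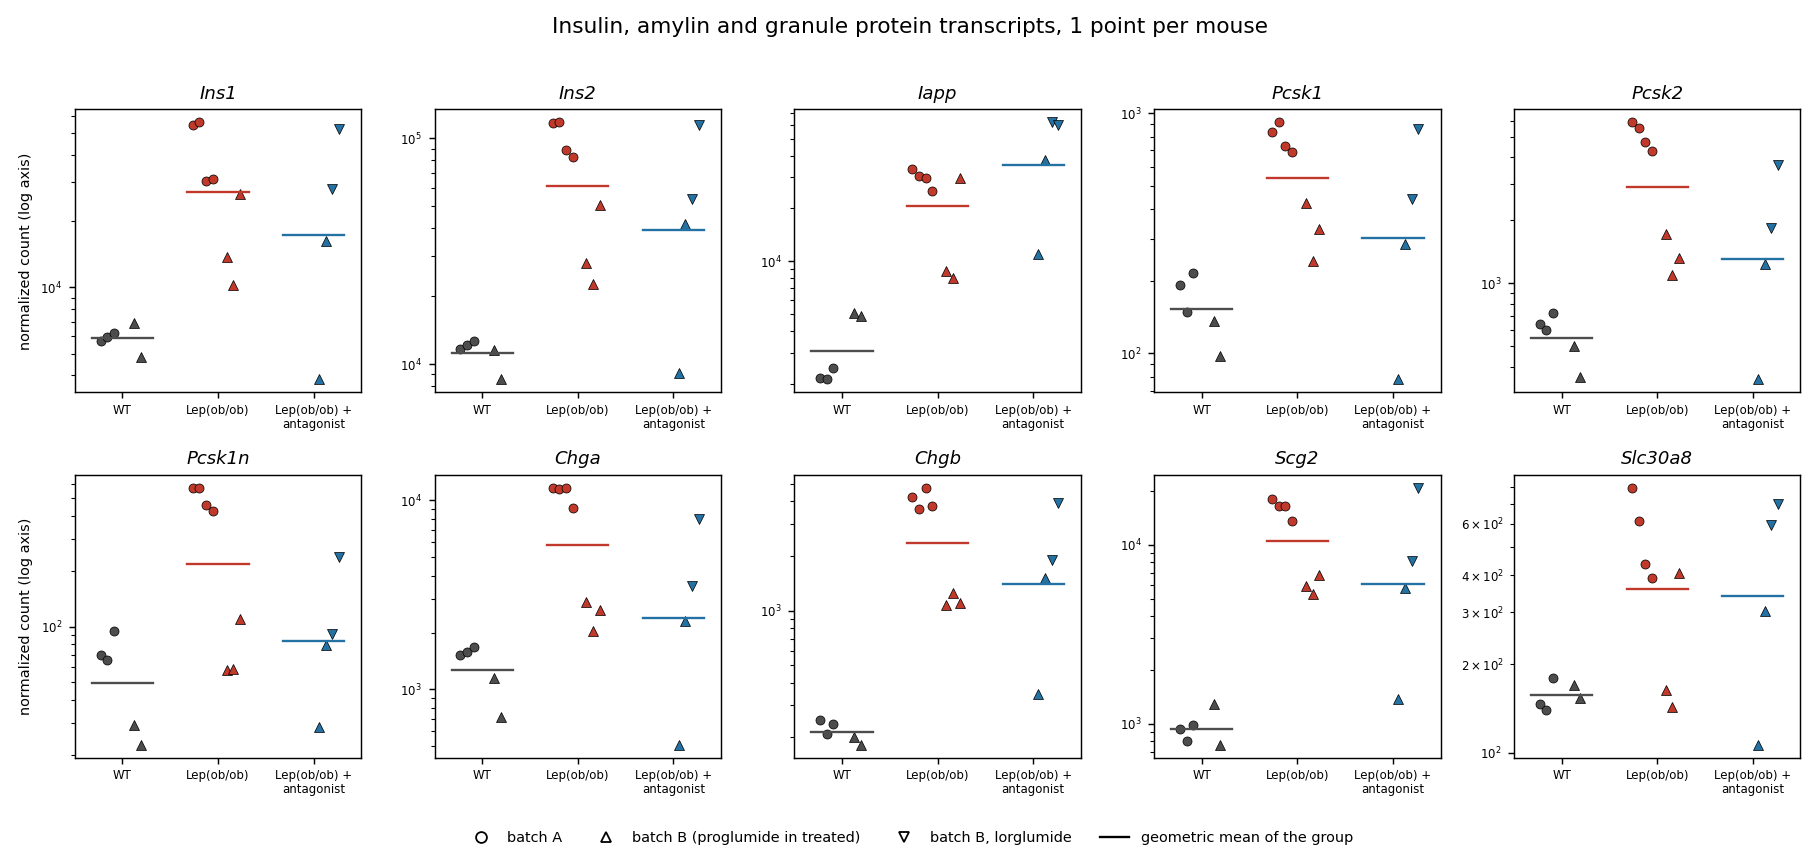
Normalized counts (log axis) of the 10 members, 1 point per mouse, in WT, untreated Lep(ob/ob) and antagonist-treated Lep(ob/ob) mice, with circles for batch A, upward triangles for batch B and downward triangles for lorglumide, and the line at the group's geometric mean. Untreated Lep(ob/ob) mice of batch A stand highest for most genes, and the 4 treated mice spread widely, with Ins2 from 9087 to 114507.

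The first comparison asks how these transcripts differ between obese and lean pancreas. Every member had a higher mean in Lep(ob/ob) than in WT mice, with edgeR log2 fold changes from 1.29 to 3.47 (median 2.37, against -0.02 over all genes tested), and 9 of 10 were called higher at an adjusted p under 0.05, beside 5.93% of all 13660 genes. Scg2 and Chgb rose most, and Slc30a8, at 1.29, was the member not called. Within batch A, all 4 Lep(ob/ob) mice lay above all 3 WT mice for 10 of 10 members, where 11.2% of genes do so, and within batch B all 3 lay above both WT mice for 9 of 10, where 17.5% of genes do.

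Ins2, the more abundant insulin transcript, was at 11611, 12111 and 12665 normalized counts in WT mice of batch A and at 11522 and 8549 in those of batch B. In untreated Lep(ob/ob) mice it was at 116617, 117761, 88896 and 82910 in batch A and at 28031, 22738 and 50651 in batch B. The groups did not overlap in either batch. Batch B mice lay below batch A mice in both genotypes, narrowly in WT and widely in Lep(ob/ob). The log2 fold change was 2.49 ± 0.47 (SE, n = 7 and 5, edgeR adjusted p = 0.00327).

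Ins1 was lower than Ins2 in every mouse. It was at 5705, 5964 and 6239 normalized counts in WT mice of batch A and 6866 and 4835 in batch B, and at 54794, 56189, 30255 and 31061 in batch A Lep(ob/ob) mice and 13779, 10271 and 26464 in batch B. No Lep(ob/ob) mouse fell into the WT range. The log2 fold change was 2.27 ± 0.50 (SE, n = 7 and 5, edgeR adjusted p = 0.0087).

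Iapp, which encodes amylin, differed between batches in WT mice already, with 2152, 2122 and 2478 normalized counts in batch A and 5092 and 4903 in batch B. In Lep(ob/ob) mice it was at 33583, 30729, 29849 and 25275 in batch A, and at 8836, 8030 and 29948 in batch B, where mouse 464 stood with the batch A mice. All 7 lay above the WT mice. The log2 fold change was 2.81 ± 0.51 (SE, n = 7 and 5, edgeR adjusted p = 0.00234).

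Scg2 and Chgb, both granins, had the largest fold changes of the members. Scg2 was at 937, 804 and 981 normalized counts in WT mice of batch A and 1296 and 763 in batch B, against 18138, 16422, 16398 and 13612 in batch A Lep(ob/ob) mice and 5907, 5323 and 6754 in batch B. Chgb was at 248, 208 and 238 in WT mice of batch A and 201 and 182 in batch B, against 4248, 3639, 4757 and 3768 and, in batch B, 1070, 1253 and 1101. For both genes every Lep(ob/ob) mouse of either batch lay above every WT mouse. The log2 fold changes were 3.44 ± 0.52 for Scg2 and 3.47 ± 0.46 for Chgb (SE, n = 7 and 5, edgeR adjusted p = 0.000597 and 0.000223). Chga ranged from 713 to 1678 in WT and from 2035 to 11680 in Lep(ob/ob) mice, with all batch A mice at or above 9161 and all batch B mice at or below 2916, and its log2 fold change was 2.20 ± 0.47 (adjusted p = 0.00699).

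Of the processing enzymes, Pcsk2 ranged from 358 to 724 normalized counts in WT mice and from 1103 to 5893 in Lep(ob/ob) mice, and Pcsk1 from 97.3 to 216 and from 242 to 918. Neither gene's groups overlapped. The log2 fold changes were 2.41 ± 0.42 for Pcsk2 and 1.85 ± 0.39 for Pcsk1 (SE, n = 7 and 5, edgeR adjusted p = 0.00182 and 0.00684). Pcsk1n, for proSAAS, was lower in batch B in both genotypes, at 65.9 to 94.9 in WT mice of batch A and 22.7 and 29.2 in batch B, and at 427 to 571 and 58.2 to 110 in Lep(ob/ob) mice. The groups overlapped over all mice but not within a batch, and the log2 fold change with batch in the model was 2.32 ± 0.41 (adjusted p = 0.00199).

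Slc30a8, the zinc transporter gene, was at 147, 140 and 180 normalized counts in WT mice of batch A and 170 and 154 in batch B, and at 795, 613, 439 and 391.8 in batch A Lep(ob/ob) mice and 163.8, 143 and 407 in batch B. Lep(ob/ob) mice 461 and 463 lay within the WT range. The log2 fold change was 1.29 ± 0.42 (SE, n = 7 and 5, edgeR adjusted p = 0.0624). The call changed with the processing: DESeq2 with batch gave an adjusted p of 0.0135, and edgeR without mouse 463 gave 0.0302 and without mouse 461 gave 0.0479. Mice 463 and 461 have the lowest Slc30a8 of the untreated Lep(ob/ob) mice. Leaving either out raises the difference by construction and is no support for it.

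**Figure D2:**
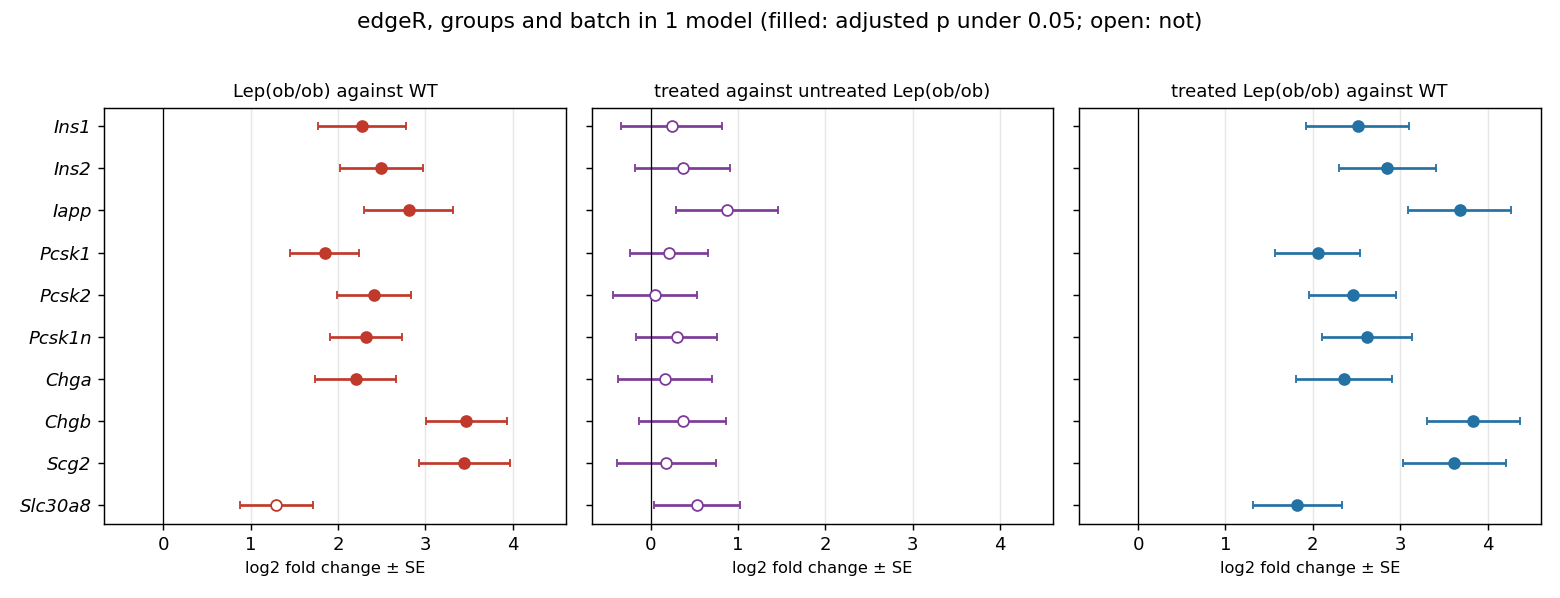
Log2 fold change (± SE, edgeR) of each member in the 3 comparisons, with filled points for an adjusted p under 0.05. The values run from 1.29 to 3.47 for Lep(ob/ob) against WT, from 0.05 to 0.87 with no filled point for treated against untreated Lep(ob/ob), and from 1.82 to 3.84 for treated Lep(ob/ob) against WT.

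The fitted differences between Lep(ob/ob) and WT mice were smaller in batch B than in batch A for each of the 10 members. In batch A alone the edgeR log2 fold changes ran from 1.88 (Slc30a8) to 4.20 (Chgb and Scg2), and all 10 members were called, beside 8.68% of 13193 genes. In batch B alone they ran from 0.53 (Slc30a8) to 2.53 (Chgb) and none was called, beside 0.0570% of 14045 genes. There 3 (Pcsk2, Chgb and Scg2) had an unadjusted p under 0.05 in edgeR, and DESeq2 was not run on that batch. The share of all genes under that unadjusted threshold is not given, so the 3 have no background to be set against. The standard errors were larger in batch B, 0.86 against 0.16 for Ins2, for example. The batch B fit also held the 4 treated mice, which enter its estimate of spread, whereas batch A has none. Among treated mice the coefficient of variation of Ins2 was 80.5%. The coefficient of variation of Ins2 was 43.9% in batch B against 18.0% in batch A among untreated Lep(ob/ob) mice, and 21.0% against 4.35% among WT mice (n = 3, 4, 2 and 3). The difference between the batches was tested as an interaction in the 12 untreated mice. The interaction was negative for all 10 members, from -0.63 (Pcsk1) to -2.12 (Iapp) on the log2 scale, and 9 of 10 had an unadjusted p under 0.05 in that direction, beside 6.41% of 13189 genes. None passed adjustment over all genes, where 0% of genes did (smallest adjusted p among members 0.124, for Chgb, in edgeR; DESeq2 was not run on it). Without Lep(ob/ob) mouse 464, 9 of 10 members passed, all except Pcsk1, with adjusted p from 0.00152 to 0.0261, where 1286 of 13132 genes passed, so that the outcome turns on that mouse.

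**Figure D3:**
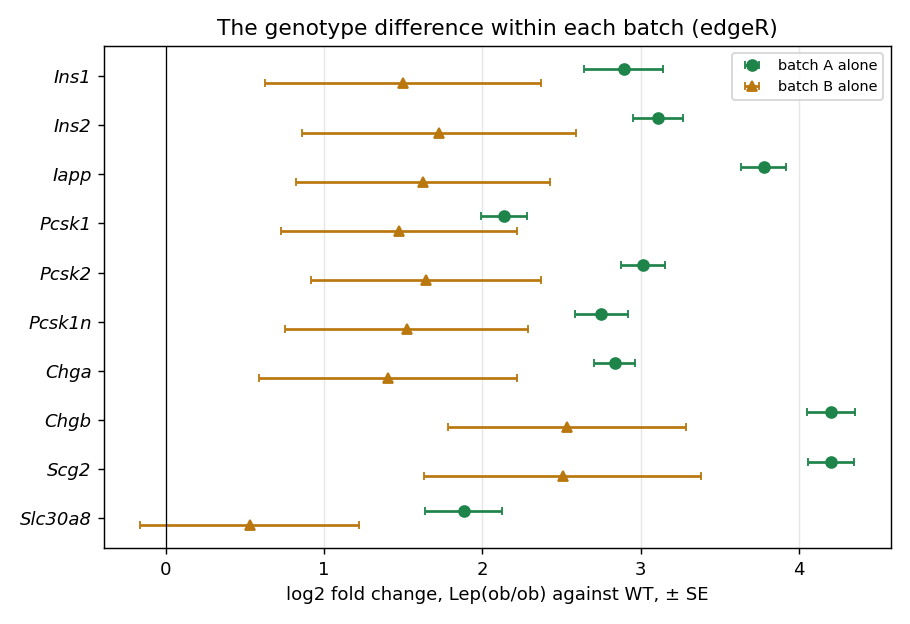
Log2 fold change (± SE, edgeR) of Lep(ob/ob) against WT mice for each member, fitted in batch A alone (circles) and in batch B alone (triangles). The batch B fit also held the 4 treated mice, which enter its SE. Each triangle lies left of its circle, and the batch B bars are longer, with Ins2 at 3.11 ± 0.16 in A and 1.73 ± 0.86 in B.

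Other tissue markers moved with batch as well. The summed normalized counts of 8 acinar genes were 7556110 to 12257500 for batch A mice, against 1434290 to 7026770 for batch B mice. Mouse 463, the untreated Lep(ob/ob) mouse with the lowest Ins1 and Ins2, had the highest adipocyte score of the 16 mice (mean log2 CPM 6.10 over 5 genes), the highest macrophage score (5.84) and the highest lymph node score (2.38), and treated mouse 69 had an adipocyte score of 5.40. On the interaction of genotype and batch the median log2 value was 2.38 over the 5 adipocyte genes, 1.37 over 6 macrophage genes and 3.24 over the 5 lymph node genes tested, against -1.36 over the members. Negative medians were not particular to the members. The median was -1.28 over 8 beta-cell transcription factors, -1.41 over the 4 other islet hormones tested and -1.78 over the 3 neuron genes tested. It was -0.91 over 12 further granule genes, -0.79 over 5 duct genes and 0.37 over 8 acinar genes. No listed adipocyte, macrophage or lymph node gene was at 0 in all mice of a group, and in Lep(ob/ob) against WT mice the adipocyte genes had log2 fold changes of 1.43 (Adipoq), 1.74 (Plin1), 2.24 (Cidec), -0.10 (Retn) and -3.15 (Cfd), of which Cfd was called by edgeR. The summed adipocyte counts were 571 to 2348 in WT, 450 to 10182 in untreated and 1151 to 6452 in treated mice. The part of these tissues in the batch difference was not tested. With mice 463 and 69 left out, a choice made after seeing the data, 10 of 10 members were called in Lep(ob/ob) against WT mice, beside 11% of 13783 genes, with Ins2 at 2.66 and Slc30a8 at 1.48. As mouse 463 has the lowest Ins2 and Slc30a8 of the untreated Lep(ob/ob) mice, leaving it out raises these values by construction and is no support for them.

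A ratio of 2 genes within a library does not depend on how that library was scaled. Counts were divided by those of Ins2, or by the geometric mean of 8 beta-cell transcription factors (Pdx1, Nkx6-1, Nkx2-2, Neurod1, Isl1, Pax6, Insm1 and Mafa), after adding 0.5, and the log2 ratios were compared by exact two-sided permutation of the mice within batches (350 arrangements, smallest possible p 0.00286), with p adjusted over 19 ratios that share denominators. Of the 9 ratios to Ins2, 6 differed by genotype, with 2 raised and 4 lowered in Lep(ob/ob) mice. Of the 10 ratios to the transcription factors, 9 were higher.

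Slc30a8 fell furthest behind insulin. The Slc30a8/Ins2 ratio was 0.0127, 0.0116 and 0.0142 in WT mice of batch A and 0.0148 and 0.0180 in batch B, against 0.00683, 0.00521, 0.00494 and 0.00473 in batch A Lep(ob/ob) mice and 0.00587, 0.00629 and 0.00804 in batch B. All 7 Lep(ob/ob) mice lay below all 5 WT mice. The ratio was 0.419-fold in batch A and 0.408-fold in batch B, and 0.414-fold over both (exact permutation p = 0.00286, adjusted p = 0.00543). Against the transcription factors, Slc30a8 was 1.08-fold (exact permutation p = 0.457), at 3.20 to 3.46 in WT and 2.86 to 4.79 in Lep(ob/ob) mice, with the groups overlapping.

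Scg2 and Chgb moved the other way relative to insulin. Scg2/Ins2 was 0.0807, 0.0664 and 0.0775 in WT mice of batch A and 0.113 and 0.0894 in batch B, against 0.139 to 0.184 in batch A Lep(ob/ob) mice and 0.133 to 0.234 in batch B. Chgb/Ins2 was 0.0172 to 0.0214 in WT mice and 0.0217 to 0.0551 in Lep(ob/ob) mice, with mouse 464 just above the WT range. The ratios were 2.03-fold for Scg2 (exact permutation p = 0.00286, adjusted p = 0.00543) and 2.01-fold for Chgb (exact permutation p = 0.00857, adjusted p = 0.0125). Within batches they were 2.15-fold and 2.13-fold in A and 1.87-fold and 1.85-fold in B, and higher without overlap in each.

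Smaller shifts were seen for Ins1, Pcsk1 and Pcsk1n. Ins1/Ins2 was 0.491, 0.492 and 0.493 in WT mice of batch A and 0.596 and 0.566 in batch B, and fell to 0.340 to 0.477 and 0.452 to 0.522 in Lep(ob/ob) mice (0.837-fold, exact permutation p = 0.02, adjusted p = 0.0271). The groups did not overlap within either batch, but in batch A alone the ratio was not called (exact permutation p = 0.171). Pcsk1/Ins2 was 0.641-fold (exact permutation p = 0.0286, adjusted p = 0.0362), from 0.517-fold without overlap in batch A and 0.872-fold with overlap in batch B. Pcsk1n/Ins2 was 0.820-fold (exact permutation p = 0.00571, adjusted p = 0.00987), lower without overlap in each batch, with the highest Lep(ob/ob) mouse of batch B at 0.00259 and the lowest WT mouse at 0.0026. With mice permuted over both batches together, Ins1/Ins2 (adjusted p = 0.0737) and Pcsk1n/Ins2 (adjusted p = 0.465) were not called by the exact permutation test. Without WT mouse 58 neither Ins1/Ins2 nor Pcsk1/Ins2 was called, and without WT mouse 59 Ins1/Ins2 was not (each adjusted p = 0.0543). Pcsk2 (0.963-fold, exact permutation p = 0.797) and Chga (0.843-fold, exact permutation p = 0.171) were not called relative to Ins2.

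**Figure D4:**
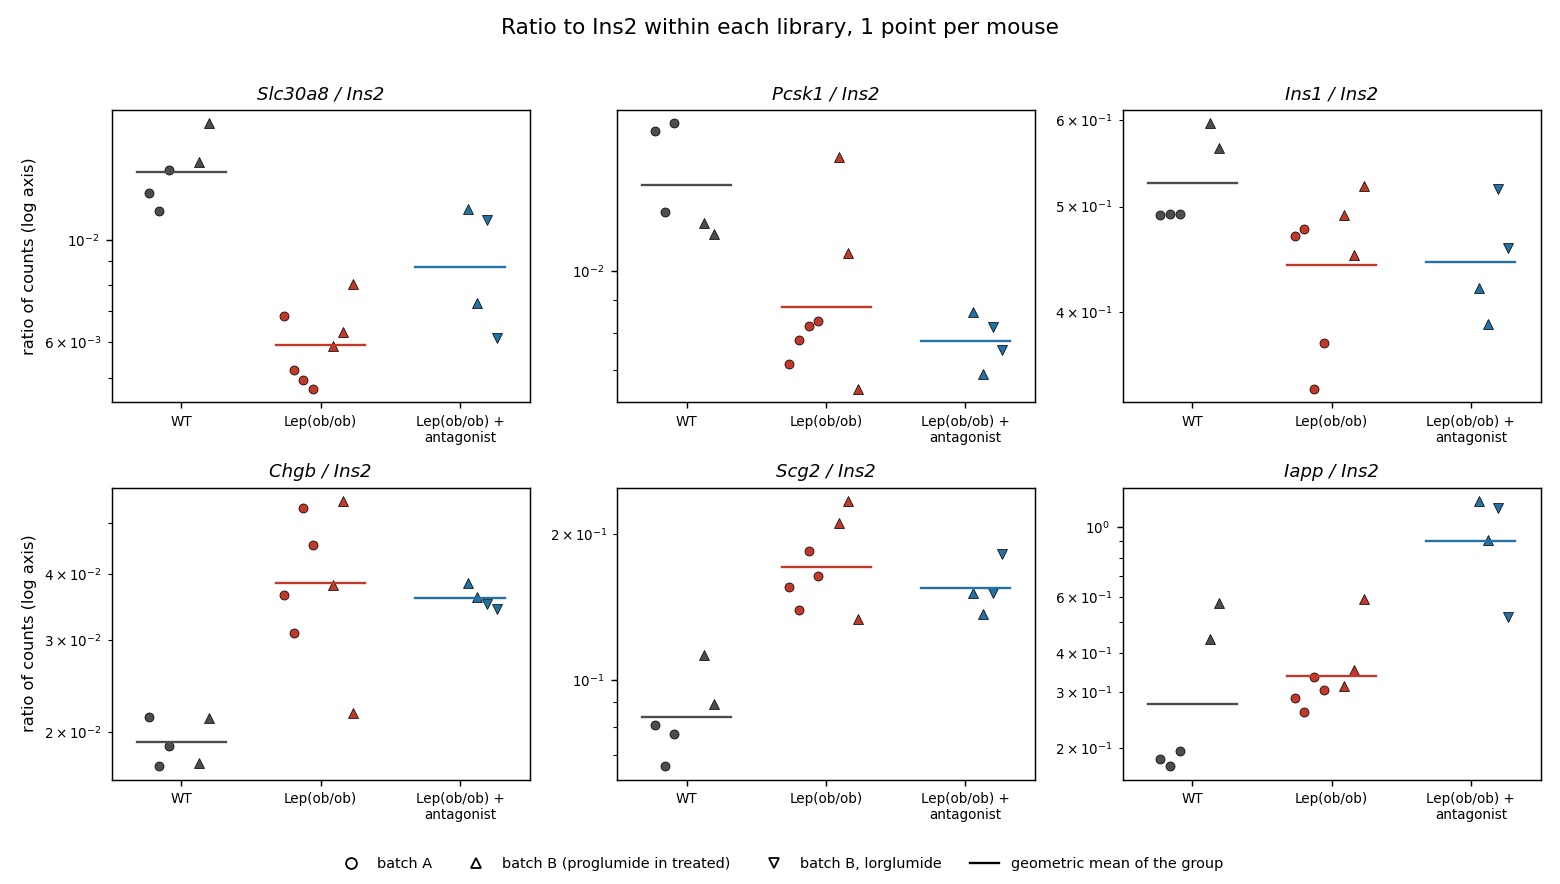
Ratio of counts to Ins2 (log axis) within each library for 6 members, 1 point per mouse, with circles for batch A, upward triangles for batch B, downward triangles for lorglumide, and the line at the geometric mean. Slc30a8/Ins2 is lower in all 7 Lep(ob/ob) mice than in all 5 WT mice, Scg2/Ins2 is higher in all 7, and Iapp/Ins2 is at 0.909 or above in 3 of the 4 treated mice.

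Iapp/Ins2 lay on opposite sides of WT in the 2 batches, a difference that was not tested. It was 0.185, 0.175 and 0.196 in WT mice of batch A and 0.442 and 0.574 in batch B, against 0.288, 0.261, 0.336 and 0.305 in batch A Lep(ob/ob) mice and 0.315, 0.353 and 0.591 in batch B. The ratio was thus 1.60-fold without overlap in batch A (exact permutation p = 0.0286, adjusted p = 0.0388) and 0.802-fold with overlap in batch B, and 1.20-fold over both (exact permutation p = 0.246, adjusted p = 0.275).

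Relative to the transcription factors, the 9 members other than Slc30a8 were higher in Lep(ob/ob) mice, by 1.68-fold (Pcsk1, overlapping in batch A) to 5.30-fold (Scg2), with Ins2 at 2.61-fold (exact permutation p = 0.00286, adjusted p = 0.00543). The Ins2 ratio was 265, 276 and 224 in WT mice of batch A and 217 and 192 in batch B, and 606 to 803 and 489 to 596 in Lep(ob/ob) mice, with no overlap between the genotypes. Within batches it was 2.61-fold in A and 2.63-fold in B. Among the 9, Pcsk1 over the factors was not called in batch A alone. Pcsk1n over the factors was not called with mice permuted over both batches together. Of the factors themselves, 4 of 8 were called higher by edgeR (Nkx6-1 1.65, Isl1 1.04, Pax6 1.64 and Insm1 2.00 on the log2 scale), and Mafa, an activator of the insulin genes, was at 0.53 (adjusted p = 0.442). Several of these factors are also made in other islet cells. Batch B alone has 10 arrangements and cannot give a p below 0.10.

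**Figure D5:**
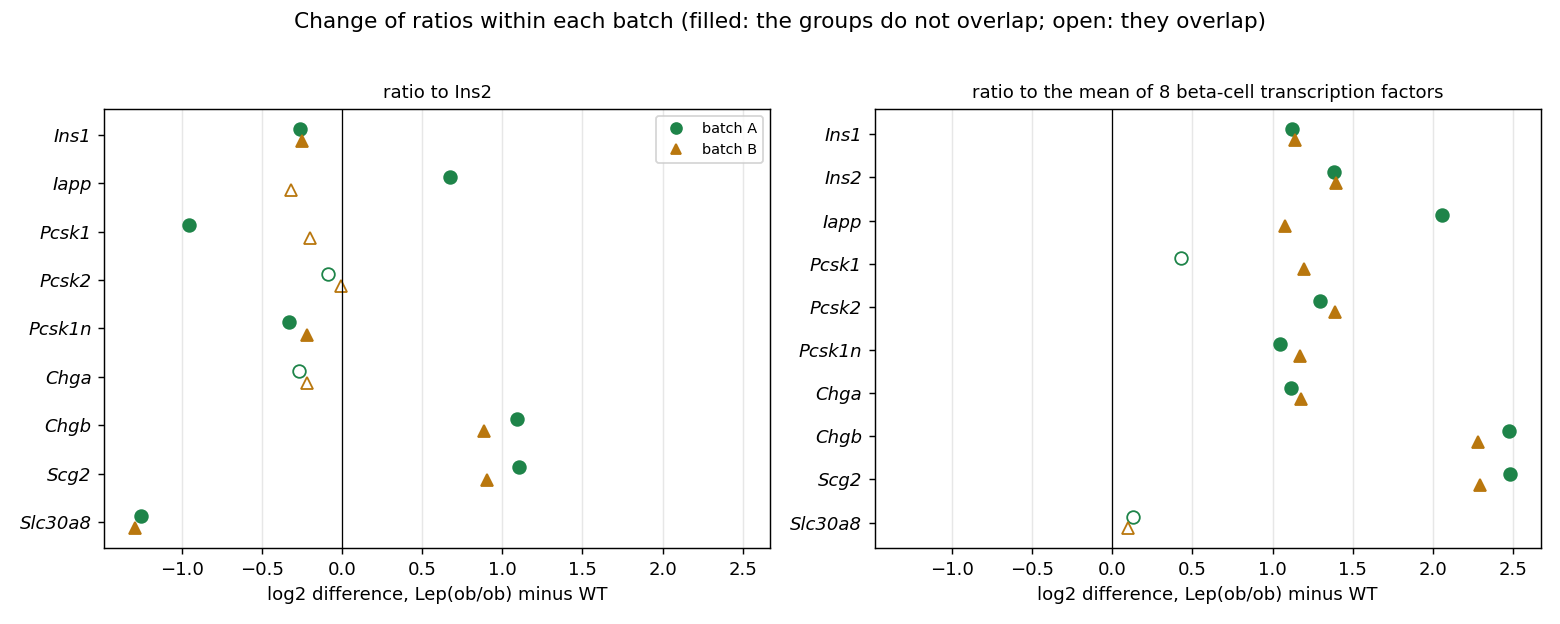
Difference in mean log2 ratio between Lep(ob/ob) and WT mice, for ratios to Ins2 (left) and to the mean of 8 transcription factors (right), with circles for batch A, triangles for batch B, and filled points where the groups do not overlap. Slc30a8, Scg2, Chgb and Ins1 lie at nearly the same place in both batches, and Iapp and Pcsk1 do not.

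Other genes of the granule pathway were taken from a list of 12 that does not include the members. Of these, 7 were called higher in Lep(ob/ob) mice, beside 5.93% of all 13660 genes, and none lower (median log2 fold change 1.66, against -0.02 over all genes). They were the granin Scg3 (2.86, adjusted p = 0.000417), the PC2 chaperone Scg5 (2.78, 0.0012), the carboxypeptidase Cpe that trims insulin after cutting (1.81, 0.00563), the amidating enzyme Pam (1.52, 0.000186), the granin-like Vgf (4.81, 0.000494), the granule membrane protein Ptprn (3.24, 0.000174) and Resp18 (2.32, 0.00349). The others were Ptprn2 (0.47), Rab3a (0.51), Sytl4 (0.17), Rab27a (0.13) and Ero1lb (-0.22), none of which was called (adjusted p 0.146 to 0.757). Rab3a, Rab27a and Sytl4 act in granule docking.

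Hormones of other islet cells were mixed. Ppy (log2 fold change 2.59, edgeR adjusted p = 0.00498) and Pyy (2.37, 0.00338) were higher in Lep(ob/ob) mice, Gcg of alpha cells was at 0.93 (adjusted p = 0.216) and Sst of delta cells at 0.04 (0.974), and Ghrl had too few reads to be tested. Gcg and Sst differed by batch. In batch A all Lep(ob/ob) mice lay above all WT mice, as for 11.2% of genes, with means 2.80-fold for Gcg and 1.41-fold for Sst. In batch B the groups overlapped, with means 1.15-fold and 0.665-fold. Among 7 neuron markers, which matter because neurons make granins too, 3 could be tested and 2 were higher, Th (2.17, adjusted p = 0.0183) and Nefm (2.34, 0.0122). The summed counts of the 7 were 18.4 to 30.8 in WT, 21.9 to 138 in untreated and 26.8 to 130 in treated Lep(ob/ob) mice, with Dbh at 0 in all mice. The part of neurons in the granin values was not tested.

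The genes whose log2 CPM over the 16 mice was most like that of Ins2, outside the members and among 10855 genes, were Syt13 (Pearson r = 0.993), Resp18 (0.992), Bace2 (0.990), Slc2a5 (0.989) and Slc7a14 (0.985). For Ins1 they were Resp18 (0.979), Bace2 (0.976), Syt13 (0.976), Slc2a5 (0.975) and Phactr1 (0.975). Among members, r with Ins2 was 0.990 for Ins1, 0.970 for Scg2 and 0.968 for Pcsk2, and lowest for Pcsk1n (0.894) and Iapp (0.855). These are measures of likeness over mice that fall into groups and batches, and carry no test.

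The second comparison asks whether blocking CCK receptors changed these transcripts in obese mice. None of the 10 members was called between treated and untreated Lep(ob/ob) mice, in edgeR, where 0.0586% of all genes were, or in DESeq2. None had an unadjusted p under 0.05 in the edgeR model of all 16 mice, where 14.3% of genes did. In the edgeR fit of batch B alone, the batch that holds the treated mice, Iapp had an unadjusted p of 0.0472 (log2 fold change 1.48 ± 0.66, adjusted p = 0.350) and the other 9 did not pass 0.05. The share of all genes under 0.05 in that fit is not given. The log2 fold changes were all positive with batch in the model, from 0.05 ± 0.48 for Pcsk2 to 0.87 ± 0.58 for Iapp (SE, n = 4 and 7, edgeR adjusted p = 0.969 and 0.485). For Ins2 the value was 0.36 ± 0.54 (adjusted p = 0.764). All treated mice are in batch B, so the batch term behind these values comes from WT and untreated mice. That term assumes the same batch difference in both genotypes, whereas the interaction above was negative for all 10 members, though none passed adjustment. Without the batch term, 8 of the 10 values were negative (Ins2 -0.39), and without treated mouse 76 Ins2 was at -0.29. Iapp stayed positive under all 24 alternatives run (0.07 to 1.48) and Slc30a8 under 23 of 24, whereas the other 8 members each turned negative under at least 4. Markers of other cell types differed in the same comparison without a call. All 6 macrophage genes had lower values in treated mice (median -1.25 on the log2 scale, unadjusted p 0.0140 to 0.0229, none called by edgeR), with summed normalized counts in batch B of 1310 to 6380 in untreated and 799 to 2021 in treated mice. Of 8 acinar genes 6 had lower values (median -0.51, 2 with an unadjusted p under 0.05), and of 5 duct genes 4 had higher ones (3 of the 5 with an unadjusted p under 0.05), with none called. Their part in these values was not tested. This comparison shares its 7 untreated mice with the first.

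The treated mice differed widely among themselves. With proglumide, Ins2 was at 9087 normalized counts in mouse 69 and 41636 in mouse 72, and with lorglumide at 53806 in mouse 74 and 114507 in mouse 76, so that mouse 69 lay between the WT mice of batch B, and mice 74 and 76 above all 3 untreated Lep(ob/ob) mice of that batch (22738 to 50651). Ins1 was at 3824 and 16258 with proglumide and at 27910 and 52514 with lorglumide. Scg2 was at 1371 and 5709, and at 8130 and 20871. Slc30a8 was at 106 and 304, and at 596 and 698. Iapp was at 10988 and 37856, and at 61901 and 59469, where the untreated mice of the same batch were at 8836, 8030 and 29948. The doses differ and each drug has 2 mice, so the values stand side by side without a test.

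Within libraries of batch B, Iapp/Ins2 was 1.21 and 0.909 with proglumide and 1.15 and 0.519 with lorglumide, against 0.315, 0.353 and 0.591 in untreated Lep(ob/ob) mice. Of the treated mice, 3 lay above all untreated ones and mouse 76 among them, for a ratio of 2.23-fold (exact permutation over 35 arrangements, p = 0.0857, adjusted p = 0.465). None of the 19 ratios was called, and the smallest p that 4 against 3 mice can give is 0.0286. Chgb/Ins2 was 0.0343 to 0.0384 in the 4 treated mice and 0.0217 to 0.0551 in the 3 untreated ones, a 1.01-fold ratio (exact permutation p = 0.914).

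The third comparison sets treated Lep(ob/ob) mice against lean WT mice, and shares its mice with the other two comparisons. All 10 members were called higher, beside 4.22% of genes, with log2 fold changes from 1.82 ± 0.51 for Slc30a8 (edgeR adjusted p = 0.0431) to 3.84 ± 0.53 for Chgb (adjusted p = 0.000368), and with Iapp at 3.68 ± 0.59 and Ins2 at 2.85 ± 0.56 (SE, n = 4 and 5). The fold changes of this comparison rest on the same assumption about the batch term as those of the second. Of the 12 further granule genes, 7 were called higher. So were the 3 neuron markers tested, Th (2.93, edgeR adjusted p = 0.0138), Nefm (2.83, 0.0194) and Elavl4 (2.65, 0.0204). Of the other islet hormones, Ppy (3.41, 0.00298) and Pyy (2.81, 0.0047) were called higher, and Gcg (1.65, 0.0942) and Sst (0.86, 0.498) were not. The part of these cells in the member values was not tested. Within batch B, where both groups have mice, all 4 treated mice lay above both WT mice for 3 of 10 members, Iapp, Chgb and Scg2, where 11.3% of genes do so, and for the rest mouse 69 lay between the WT mice (Ins2 and Pcsk1n) or below both (Ins1, Pcsk1, Pcsk2, Chga and Slc30a8). Fitted in batch B alone, none of the members was called by edgeR (Ins2 2.47, adjusted p = 0.327), beside 0.0926% of 14045 genes. In that fit 9 of 10 had an unadjusted p under 0.05, and DESeq2 was not run on it. The share of all genes under that unadjusted threshold is not given, so the 9 have no background to be set against. Without treated mouse 76 the count of members called over both batches was 6, with Ins1, Pcsk1, Chga and Slc30a8 not called. Without the batch term it was 5, with the fit held to the 2 groups compared it was 2, and with the proglumide mice as the treated group it was 3. With the lorglumide mice, given another dose, it was 10. The share of all genes called is not given for these settings, so the counts show only that the calls depend on the setting. Slc30a8 lost its call without any 1 of 7 of the 9 mice compared, the 5 WT mice and treated mice 74 and 76 (adjusted p 0.0607 to 0.138).

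Slc30a8/Ins2 in the treated mice was 0.0117, 0.0073, 0.0111 and 0.0061, below the 0.0148 and 0.0180 of the WT mice of that batch in each case, and Scg2/Ins2 was 0.137 to 0.182, above the WT values of 0.113 and 0.0894. Relative to the transcription factors, Ins2 was 229 to 700 in treated mice and 192 and 217 in the WT mice. Of the 19 ratios, untreated Lep(ob/ob) mice were apart from the WT mice of batch B in 14. Treated mice were apart on the same side in 9 of these and overlapped the WT mice in 5, namely Pcsk1n/Ins2 and the ratios of Ins1, Pcsk1, Pcsk2 and Chga to the transcription factors. In 3 further ratios treated mice were apart from WT where untreated mice overlapped them, with Pcsk1/Ins2 at 0.666-fold, Pcsk2/Ins2 at 0.781-fold and Chga/Ins2 at 0.671-fold. No background share is available for these counts. Untreated and WT mice of batch B allow 10 arrangements, so a ratio that is apart cannot give a permutation p below 0.10. Both groups were set against the same WT mice and the ratios share denominators, so the 9 are not independent and their agreement was not tested.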

How the data were processed

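RNA of the whole pancreas was sequenced after poly(A) selection with a stranded kit. The authors trimmed reads (Trim Galore 0.6.7, cutadapt 3.5), aligned them to mm10 (STAR 2.7.9) and deposited a table of raw counts per gene and a table of normalized signal, in which the authors divided each count by a size factor of the library. The counter, its strand setting and its annotation are not given in the sources used here. Raw counts were tested with edgeR 4.0.16 (quasi-likelihood, TMM, filterByExpr, R 4.3.3) with group and batch for all 16 mice, with Benjamini-Hochberg adjustment over 13660 genes at 0.05; the SE is the fold change divided by the root of F. Ratios used an added count of 0.5 and exact permutation within batches (Python 3.11.15, numpy 2.4.6). Likeness used log2 CPM (prior count 2) among genes with a mean of at least 1. The named genes were the 10 members, the 12 granule genes and the 5 genes most like each insulin gene. The scripts were tested on simulated data. Alternatives were DESeq2 1.42.0, other scalings, filters and samples, single batches and single drugs. The members and lists were chosen with earlier results of these data known.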

Additional observations from a re-analysis of the deposited data

Results flagged for a closer look

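In 87 groups of 4, 5 or 7 mice (30 of genes and 57 of ratios), 5 had 1 mouse far from the others by Dixon's ratio of its gap to the range, where chance gives about 1 in 20, or 4.35. The WT and untreated Lep(ob/ob) groups pool both batches, which differ in level, and the chance value does not allow for that. Ins2 was lowest in WT mouse 59 (0.759), at 8549 normalized counts. The other 4 concerned Lep(ob/ob) mouse 464 of batch B, with Iapp/Ins2 highest (0.630), Pcsk2/Ins2 lowest (0.686), Chga/Ins2 lowest (0.585) and Iapp relative to the transcription factors highest (0.591). These 4 ratios share genes and are not independent.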

How the results depend on the processing

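The 9 members called higher in Lep(ob/ob) than WT mice by edgeR were 9 or 10 under every other setting except batch B alone (0), and 9 to 10 when each mouse was left out. Slc30a8 was called under 8 of 24 settings. For treated Lep(ob/ob) against WT mice, the 10 calls became 5 without the batch term, 2 with only the compared groups, 0 in batch B alone, 3 with proglumide mice alone, and 6 to 10 with a mouse left out. The share of all genes called is not given for most of these settings, so the counts show only how far the calls depend on the setting. Interaction calls were 0 to 9 with a mouse left out, 9 being without mouse 464. The 15 ratios called for Lep(ob/ob) against WT became 0 in batch B alone, 14 in batch A alone (Iapp/Ins2 called, Ins1/Ins2 and Pcsk1 over the transcription factors not), 12 with mice permuted over both batches together (Ins1/Ins2, Pcsk1n/Ins2 and Pcsk1n over the transcription factors not called), and 13 to 15 with a mouse left out.

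For treated against untreated Lep(ob/ob) mice no call was made under any setting, but signs turned. Without batch, edgeR gave log2 fold changes of -0.33 for Ins1, -0.39 for Ins2, -0.51 for Pcsk1, -0.97 for Pcsk2, -1.55 for Pcsk1n, -1.03 for Chga, -0.55 for Chgb and -0.37 for Scg2. DESeq2 without batch gave -0.34, -0.40, -0.52, -0.99, -1.55, -1.04, -0.56 and -0.38 in that order. Proglumide alone gave -1.08, -0.75, -0.98, -1.11, -0.73, -1.18, -0.68 and -1.17, and -0.53 for Slc30a8, whereas lorglumide alone gave 0.93, 0.99, 0.87, 0.69, 0.93, 0.86, 0.99 and 0.87, and 1.15 for Slc30a8. With a mouse left out the ranges were -0.41 to 0.61 for Ins1, -0.29 to 0.72 for Ins2, -0.43 to 0.57 for Pcsk1, -0.59 to 0.40 for Pcsk2, -0.42 to 0.65 for Pcsk1n, -0.60 to 0.53 for Chga, -0.25 to 0.73 for Chgb and -0.66 to 0.55 for Scg2, with the lowest values without mouse 76. The cause was not tested.

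Among log2 ratios, Iapp/Ins2 in Lep(ob/ob) against WT was -0.32 in batch B alone, and Pcsk2/Ins2 ranged from -0.15 to 0.072 with a mouse left out. In treated against untreated mice, ranges with a mouse left out were -0.26 to 0.031 for Pcsk1n/Ins2, -0.35 to 0.32 for Chgb/Ins2 and -0.12 to 0.25 for Slc30a8 over the transcription factors, which was -0.12 without Mafa and Insm1 among the factors. Chgb over the factors was 0.23 with mice 463 and 69 both left out, a choice made after seeing the data. No paired analysis was possible because the groups share no replicate numbers. With 2 WT mice in batch B, comparisons with WT within that batch have few mice to rest on.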
